A study of Homo sapiens with 6 samples.

Results

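The translation initiation factors of INA-6 cells were examined as a family, to see which of their mRNAs differed after interleukin-6 (IL-6) was returned. The members were chosen by gene symbol, and all 41 symbols had at least 1 probe on the array, out of 17411 genes with a symbol. The family was selected on an earlier reading of the same contrast in which EIF5 stood out, so every restimulated against withdrawn value of its members is a description here and supports nothing beyond itself. INA-6 is a human multiple myeloma cell line that is maintained in IL-6. All samples spent 13 h without IL-6. Total RNA was taken from 3 of them at that point (withdrawn), and from the other 3 after IL-6 had been back in the medium for 1 h (restimulated). Each sample was hybridized to 1 single-color nONCOchip, a custom array of 243504 spots. Whether the biological replicates were grown as separate cultures is not stated, so the errors and p-values here cover the spread among these arrays and may be technical.

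Translation initiation loads the small ribosomal subunit with initiator tRNA, brings it to the capped end of an mRNA, scans for the start codon and then joins the large subunit. eIF2 carries the initiator tRNA with GTP, eIF2B recharges eIF2, eIF3 holds the complex together, and the eIF4 proteins bind the cap and unwind the leader. eIF1 and eIF1A keep the scanning complex open, and eIF5 makes eIF2 hydrolyze its GTP in the course of start codon selection. Growth signals and stress are known to act on this machinery largely through phosphorylation of its proteins, which an array of RNA does not measure.

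The response to IL-6 and the cell type were looked at first. SOCS3 and SGK1 were picked with earlier results of these data known and ranked 1 and 2 by difference. Their values are therefore a description. SOCS3, a feedback inhibitor of STAT3 signaling, rose by 3.87 ± 0.13 on the log2 scale (SE, 3 arrays per group, limma adjusted p = 0.000634), and SGK1, an IL-6 responsive kinase in these cells, rose by 2.72 ± 0.11 (SE, limma adjusted p = 0.000740). All 9 plasma cell markers on the array were above background, that is above the array median on at least 3 of the 6 arrays, with SDC1 at 11.23 and 11.39 and JCHAIN at 14.33 and 14.34 (log2 intensity, restimulated and withdrawn means). PRDM1, a plasma cell transcription factor, rose by 1.29 ± 0.07 (SE) and was the 1 plasma cell marker past the test. Groups did not overlap for 5 of the 9 markers (55.6%), against 12.2% of all genes tested. These 5, all higher after restimulation, were PRDM1, POU2AF1 (0.80), XBP1 (0.71), IRF4 (0.49) and SLAMF7 (0.41, log2 differences). The other 4 had negative differences, the lowest -0.16. Of the 19 markers of B, T, myeloid, erythroid, fibroblast and epithelial cells on the array 10 were above background, namely KRT8 of epithelial cells, CD2, CD3E and NKG7 of T and NK cells, CD14 and ITGAM of myeloid cells, CD22 and PAX5 of B cells, and the globins HBA1 and HBB. None of these 10 passed the test, where 0.244% of all tested genes passed. CD2 (8.36 and 8.81) and CD22 (7.34 and 7.58) had groups that did not overlap, as did 12.2% of all genes tested. CD14 read 9.33 and 9.88. The part of such markers in the values below was not tested. KRT8 read 14.56 and 14.72, above JCHAIN, CD3E 9.22 and 9.40, and PAX5 8.46 and 8.45 (restimulated and withdrawn means). Of the markers not above background, CD3D, LYZ, CSF1R, EPCAM and COL3A1 were not above the array median on any array. COL1A1, DCN, KRT19 and MS4A1 were above it on 1 array each. Over the tested genes, arrays of 1 group correlated with r between 0.986 and 0.994 and arrays of different groups with r between 0.987 and 0.992, across genes that are not independent replicates.

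EIF5 was the initiation factor with the largest difference. Its brightest probe read 11.61, 11.57 and 11.32 (log2 intensity) in restimulated replicates 1, 2 and 3, and 10.68, 10.61 and 10.70 in withdrawn replicates 1, 2 and 3. The groups did not overlap, and the lowest restimulated value lay 0.62 above the highest withdrawn value. Restimulated replicate 3 was the lowest of its group, and the withdrawn arrays lay within a narrow band (SD 0.05, against 0.16 in the restimulated arrays). The means of 11.50 and 10.66 gave a difference of 0.83 ± 0.09 on the log2 scale (SE, 3 arrays per group, 95% interval 0.60 to 1.07), a level 1.78-fold higher after restimulation.

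The array holds 3 probes for EIF5, and all 3 separated the groups. The second probe read 9.53, 9.37 and 9.54 in the restimulated and 8.74, 8.75 and 8.41 in the withdrawn arrays, a log2 difference of 0.84 ± 0.11 (SE, from the fit over all tested spots). The dimmest probe read 8.67, 8.83 and 8.50 in the restimulated and 7.75, 7.77 and 7.66 in the withdrawn arrays, a difference of 0.94 ± 0.10 (SE). The folds of these probes were 1.79 and 1.92. The 3 probes read the same RNA on the same arrays, so they repeat the measurement of the gene and do not add samples.

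**Figure D1:**
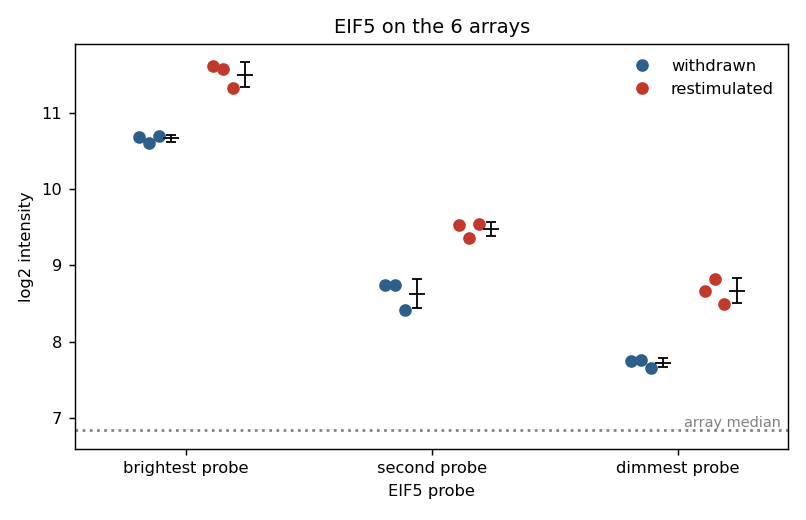
EIF5 on the 6 arrays, with the probe on the horizontal and the log2 intensity on the vertical axis. Points are arrays in the order of replicates 1 to 3, black bars are the mean and SD of 3 arrays, and the dotted line is the array median. At each of the 3 probes every restimulated array lies above every withdrawn array, by a gap of 0.62, 0.62 and 0.73.

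In the fit over all 12703 genes EIF5 lay next to the threshold. Its adjusted p (limma, Benjamini-Hochberg) was 0.0504, and it stood 32nd by p where 31 genes passed 0.05 and 40th by the size of the difference. This place is given for orientation only, since the family was named for it. Among 12 other settings 7 placed EIF5 past 0.05, and none of the 6 fits that left out 1 array did, although its log2 difference stayed between 0.78 and 0.93 in all of them. No initiation factor passed in the fit as made (0 of 40 tested), where 0.244% of all tested genes passed. An unadjusted limma p under 0.05 was found for 2 of the 40, EIF5 and EIF3B, and for 1015 of all 12703 genes.

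The other 39 tested factors spanned differences from -0.16 to 0.24 on the log2 scale, at most 1.18-fold in either direction. All 39 differed by less than 0.25, as did 89.6% of all genes tested. Their 95% intervals reached from -0.74 to 0.56 at the widest, both bounds being those of EIF3M, and their lowest limma adjusted p was 0.623. These intervals do not show that the factors were equal in both groups, but none of them reached the lower bound of EIF5, 0.60, on the positive side. The groups did not overlap for 2 of the 40 factors, EIF5 and EIF5B (5%), while 12.2% of all genes tested had groups that did not overlap. Between EIF5 and the next factor, EIF3B, lay 562 other genes in the order of differences.

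**Figure D2:**
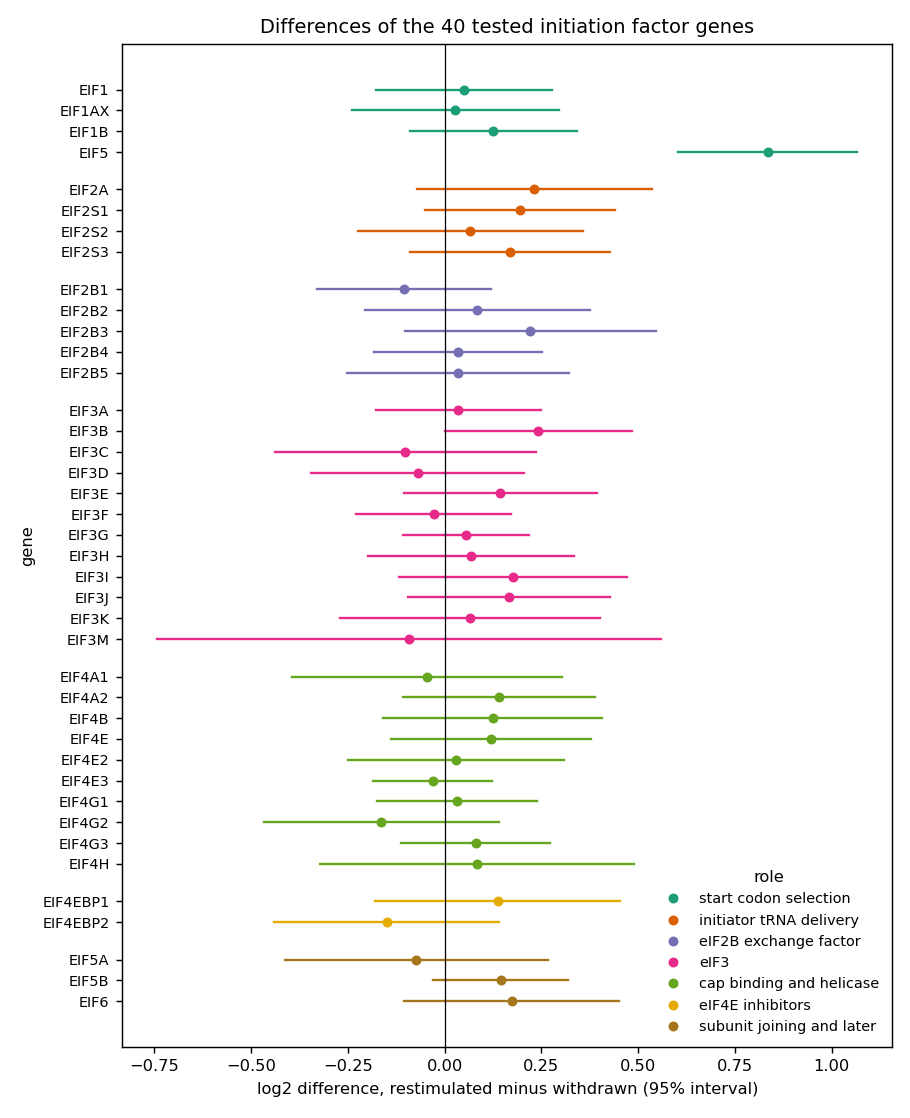
Differences of the 40 tested initiation factor genes, with the log2 difference (restimulated minus withdrawn) on the horizontal axis and the genes grouped by role on the vertical axis. Points are differences, lines are 95% intervals from limma (n = 3 per group), and the interval of EIF5, 0.60 to 1.07, lies to the right of all others.

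**Figure D3:**
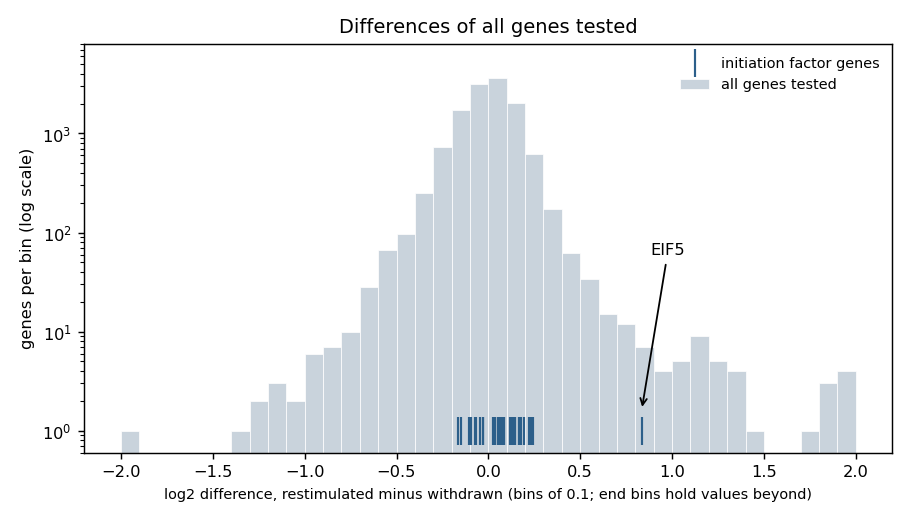
All 12703 genes tested by their log2 difference (horizontal, bins of 0.1) and their number (vertical, log scale), with the 40 tested initiation factors as blue ticks. Apart from EIF5, at 0.83, the ticks lie between -0.16 and 0.24.

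The partners of eIF5 in start codon selection stayed near their withdrawn levels. EIF1, which guards against initiation at wrong codons, differed by 0.05 ± 0.09 (SE), its close relative EIF1B by 0.13 ± 0.09 (SE) and EIF1AX, which encodes eIF1A, by 0.03 ± 0.11 (SE). The other probe of EIF1 differed by 0.07 and the other probes of EIF1AX by 0.04 and 0.05.

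The 4 genes of initiator tRNA delivery had positive differences at their brightest probes, none past the test. EIF2A, an alternative initiator tRNA binding factor, read 9.90, 9.73 and 9.45 in the restimulated and 9.41, 9.53 and 9.44 in the withdrawn arrays. The groups overlapped, because restimulated replicate 3 lay at the withdrawn level, and the difference was 0.23 ± 0.12 (SE, limma adjusted p = 0.727). The eIF2 subunit genes EIF2S1, EIF2S2 and EIF2S3 differed by 0.19 ± 0.10, 0.07 ± 0.12 and 0.17 ± 0.11 (SE). The dimmer probe of EIF2S1 differed by less than 0.01, and that of EIF2S2 by 0.18 with groups that did not overlap. EIF2S1 encodes the alpha subunit, whose phosphorylation is the target of the stress kinases.

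The exchange factor eIF2B, which restores eIF2 to its GTP-bound form, had 4 positive and 1 negative difference in its 5 subunit genes, none past the test. EIF2B3 read 10.09, 9.91 and 9.83 in the restimulated and 9.61, 9.97 and 9.58 in the withdrawn arrays. Withdrawn replicate 2 lay above 2 of the restimulated arrays, and the difference was 0.22 ± 0.13 (SE, limma adjusted p = 0.753). EIF2B2, EIF2B4 and EIF2B5 differed by 0.08, 0.04 and 0.03, and EIF2B1 by -0.10.

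Of the 12 eIF3 subunit genes chosen as members 8 had a positive and 4 a negative difference, with a median of 0.06. EIF3L was not among them and was tested with the other initiation factors. EIF3B, a scaffold subunit of the core, read 11.30, 11.62 and 11.48 in the restimulated and 11.16, 11.31 and 11.20 in the withdrawn arrays. Restimulated replicate 1 lay just below withdrawn replicate 2, and the difference of 0.24 ± 0.10 (SE, limma adjusted p = 0.623) was the second largest of the family. EIF3I and EIF3J, whose products are a core subunit and a loosely bound subunit, differed by 0.18 ± 0.12 (SE) and 0.17 ± 0.11 (SE). EIF3A, EIF3E, EIF3G, EIF3H and EIF3K lay between 0.04 and 0.14, and EIF3C, EIF3D, EIF3F and EIF3M between -0.10 and -0.03. EIF3M varied most within a group, with withdrawn arrays at 12.16, 12.67 and 11.69. EIF3C has a near-identical copy in the genome, so its signal may come from both. The dimmer probe of EIF3F had restimulated values of 10.47, 10.51 and 10.54 below withdrawn values of 10.81, 10.69 and 10.71, a difference of -0.23 that its brighter probe, at -0.03, did not share.

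The genes of cap binding and mRNA unwinding differed by at most 0.16. EIF4G2, whose product resembles the scaffold eIF4G but lacks the part that binds eIF4E, read 13.04, 13.17 and 13.33 in the restimulated and 13.29, 13.55 and 13.19 in the withdrawn arrays. The groups overlapped, and its difference of -0.16 ± 0.12 (SE, limma adjusted p = 0.809) was the most negative of the family. The scaffolds EIF4G1 and EIF4G3 differed by 0.03 and 0.08, the helicases EIF4A1 and EIF4A2 by -0.05 and 0.14, and the helicase cofactors EIF4B and EIF4H by 0.12 and 0.08. EIF4E, the cap-binding protein and a known oncogene, differed by 0.12 ± 0.11 (SE, 95% interval -0.14 to 0.38), and its relatives EIF4E2 and EIF4E3 by 0.03 and -0.03. The dimmer probe of EIF4E2 differed by 0.19, with groups that did not overlap, and those of EIF4E3 by 0.12 and -0.07. The 4 probes of EIF4A1 lay between -0.05 and 0.11 and the 5 probes of EIF4B between -0.01 and 0.15.

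Neither of the 2 inhibitors of eIF4E differed beyond the replicate spread. EIF4EBP2 read 10.64, 10.30 and 10.52 in the restimulated and 10.52, 10.79 and 10.59 in the withdrawn arrays, a difference of -0.15 ± 0.12 (SE, limma adjusted p = 0.818). At its dimmer probe the sign was opposite, with 0.07. EIF4EBP1, the main target of mTORC1 among these inhibitors, differed by 0.14 ± 0.13 (SE). The groups overlapped for both genes.

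Among the factors that act at subunit joining or later, EIF5B had groups that did not overlap, by a gap of 0.02. EIF5B, the GTPase that joins the large subunit, read 9.29, 9.30 and 9.27 in the restimulated and 9.06, 9.25 and 9.10 in the withdrawn arrays, a difference of 0.14 ± 0.07 (SE, limma adjusted p = 0.712). EIF6, which keeps the large subunit from joining early, read 11.79, 11.89 and 11.96 against 11.75, 11.88 and 11.50, with overlapping groups and a difference of 0.17 ± 0.11 (SE, limma adjusted p = 0.773). EIF5A, the hypusine-bearing factor of elongation, differed by -0.07 ± 0.14 (SE). Its relative EIF5A2 was the 1 member not tested, since neither of its 2 probes was above the array median on any array, with brighter-probe means of 6.64 and 6.60.

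The family as a whole lay slightly to the positive side. Of the 40 tested factors 30 (75%) had a positive difference, against 53.2% of all genes tested, and the median was 0.07 against 0.01. The median was not tested and depended on single arrays. It was 0.03 without restimulated replicate 2, 0.12 without restimulated replicate 1 and 0.13 without withdrawn replicate 2. The deviations from each gene's mean over the 6 arrays showed this array by array. Their median over the factors was -0.04, 0.10 and 0.04 in restimulated replicates 1, 2 and 3 and -0.08, 0.04 and -0.09 in withdrawn replicates 1, 2 and 3. Leaving EIF5 aside, 17 of 39 factors had their highest value on restimulated replicate 2 and 10 on withdrawn replicate 2, while 33 had their lowest on restimulated replicate 1 or on withdrawn replicates 1 or 3. The median deviation of all tested genes had the same sign on each of the 6 arrays and was highest on withdrawn replicate 2, at 0.05. The part of such shifts between arrays in the family's median was not tested. The order of the arrays within a group differed between the EIF5 probes. The brightest was highest on restimulated replicate 1 and lowest on withdrawn replicate 2, the second highest on restimulated replicate 3 and lowest on withdrawn replicate 3, and the dimmest, like many other factors, highest on restimulated replicate 2 and lowest on withdrawn replicate 3.

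**Figure D4:**
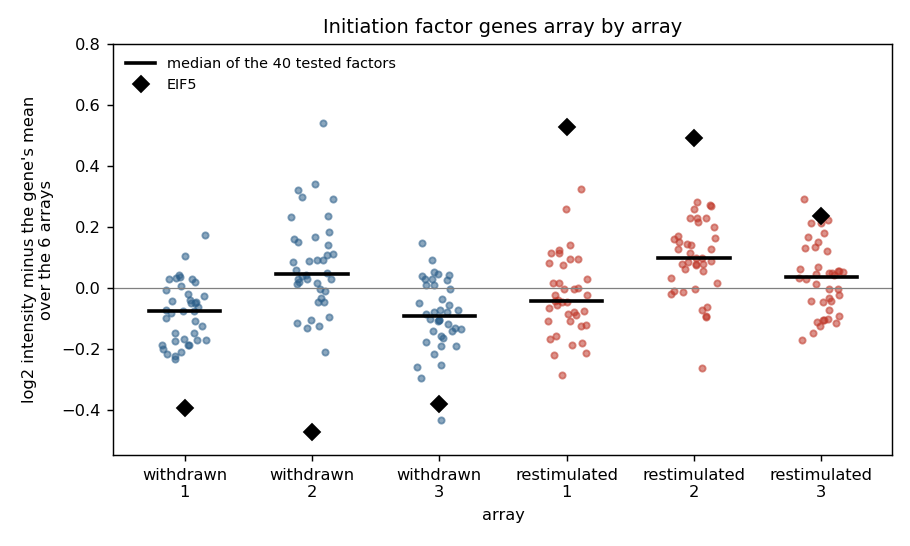
Initiation factor genes array by array, with the array on the horizontal axis and the log2 intensity minus the gene's mean over the 6 arrays on the vertical axis. Each point is 1 of 39 factors, bars are the median of the 40 tested factors and diamonds are EIF5 (brightest probe), which lies below 0 on the 3 withdrawn and above 0 on the 3 restimulated arrays. The bars run from -0.04 to 0.10 in the restimulated and from -0.09 to 0.04 in the withdrawn arrays.

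The direction of the small differences often depended on the probe. Of the 21 factors with more than 1 tested probe, 14 had the same sign at all of them. The other factors, with probes of both signs, were EIF2S1, EIF4A1, EIF4B, EIF4E3, EIF4EBP2, EIF4H and EIF5A. The 41 genes had 77 probes, of which 73 were tested and none touched the scanner ceiling of 16. The groups did not overlap at 7 of these 73 probes, 3 of them of EIF5 and 1 each of EIF2S2, EIF3F, EIF4E2 and EIF5B, where 11.7% of all tested probes with a symbol had no overlap. The 70 probes of the other factors spanned differences from -0.23 to 0.24. In the fit over all tested spots, in which 1.83% of spots passed an adjusted p of 0.05, none of the 70 passed, with a lowest limma adjusted p of 0.169. Of the 21 factors with more than 1 tested probe, EIF5 was the 1 whose groups were apart at every probe. The share of such genes over the whole array was not computed, and EIF5 was selected on this contrast, so the count is a description only.

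Genes that regulate or follow initiation did not differ past the test either. None of the 49 tested genes of the 6 related lists passed in either direction, where 0.244% of all tested genes passed. At so low a share this count does not set the lists apart. The list medians lay between -0.01 and 0.11, against 0.01 for all genes. In the list of other initiation factors DENR, a reinitiation factor, differed by -0.35 ± 0.22 (SE), with withdrawn replicate 3 at 10.79 above all other arrays (9.79 to 10.09), and the helicase DDX3X by 0.19 ± 0.10 (SE). Among the 10 tested genes of the eIF2 kinases and the stress response, EIF2AK2 (PKR) differed by 0.19 ± 0.19 (SE) and EIF2AK3 (PERK), near the array median, by -0.15 ± 0.13 (SE). The EIF2AK3 value rested on withdrawn replicate 1 and was -0.009 without it. Of the mTORC1 and MNK genes the S6 kinase gene RPS6KB2 differed by 0.22 ± 0.09 (SE), with groups that did not overlap, and TSC2, an inhibitor of mTORC1, by -0.12 ± 0.12 (SE). DOHH, which completes the hypusine of eIF5A, had restimulated values of 8.44, 8.74 and 8.42 above withdrawn values of 8.18, 8.09 and 8.29, a difference of 0.35 ± 0.11 (SE, limma adjusted p = 0.507). The elongation factor gene EEF1G differed by 0.32 ± 0.16 (SE). Groups did not overlap for 1 of the 10 tested mTORC1 and MNK genes, RPS6KB2, and for 2 of the 9 tested elongation genes, DOHH among them. No gene of the other related lists had such groups, where 12.2% of all genes tested did. The poly(A)-binding protein gene PABPC4 and its partner PAIP1 differed by -0.13 ± 0.17 and 0.08 ± 0.11 (SE), the former by -0.003 without withdrawn replicate 3 and the latter by -0.006 without restimulated replicate 2. ABCE1 and PELO of ribosome recycling differed by 0.14 ± 0.12 and 0.08 ± 0.08 (SE).

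Promoter sequences were available for 35 of the 41 genes (RefSeq, GRCh38.p14), and 250 bases before each annotated start were searched. STAT factors bind palindromes of the form TTCNNNGAA. This motif occurred in 2 of the 35 genes (5.71%), EIF3I and EIF4E, against 8.09% of 27305 genes, and in neither of the 2 annotated promoters of EIF5. The first EIF5 promoter is shown because EIF5 had the largest difference, on the plus strand at chr14:103333987-103334236. Capitals mark 2 CCAAT boxes, a common promoter element found on either strand in 45.7% of the 35 genes and in 37.0% of all genes.

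EIF5: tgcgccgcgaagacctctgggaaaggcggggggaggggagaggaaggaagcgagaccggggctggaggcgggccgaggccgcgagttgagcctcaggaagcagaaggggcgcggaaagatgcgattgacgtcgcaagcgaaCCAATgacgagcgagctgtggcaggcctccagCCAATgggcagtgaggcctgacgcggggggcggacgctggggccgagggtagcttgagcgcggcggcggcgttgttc

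The stretches of 41 bases around the TTCNNNGAA matches of the other genes are shown for comparison, with the match in capitals. The EIF3I stretch lies at chr1:32222328-32222368 on the plus strand, its match ending 54 bases before the start, and the EIF4E stretch at chr4:98929256-98929296 on the minus strand, its match ending 138 bases before the start.

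EIF3I: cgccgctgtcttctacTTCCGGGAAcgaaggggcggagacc

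EIF4E: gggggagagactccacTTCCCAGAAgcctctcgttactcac

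EIF3I and EIF4E differed by 0.18 ± 0.12 and 0.12 ± 0.11 (SE). Whether the motif bears on any difference, that of EIF5 included, was not tested. A match of letters is not a bound site, and these windows leave out the rest of the locus. The E-box CACGTG, the core site of MYC and other helix-loop-helix factors, occurred in 9 of the 35 genes (25.7%), namely EIF1B, EIF2B3, EIF3F, EIF3K, EIF4B, EIF4E, EIF4G1, EIF4H and EIF5A2, against 7.73% of all genes. For each motif a gene counted if any of its annotated promoters held it. The set of all genes was not matched to the factors in promoter number, gene class or base content. Of these 9 genes 8 were tested, and their differences ran from -0.03 to 0.22. The E-box and the CCAAT box were chosen after the sequences had been seen.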

How the data were processed

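The authors labeled total RNA with a random primer carrying a T7 promoter, hybridized it to an Agilent custom array, scanned with GenePix and normalized by quantiles. They deposited log2 intensities, 1 per spot and array (submitters' processing notes: R 2.9.0 and limma). The sources used here do not give a background correction. Values were used as deposited, so differences are relative to the average spot. Rows of the value table were matched to the platform's probe numbers through the array grid. This inference gave r = 0.432 between mean levels of 2 probes of the same gene (7146 genes), against 0.0174 for equal numbers, and all gene names rest on it. Symbols were updated through RefSeq (GRCh38.p14).

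A probe was tested if it exceeded the median spot of the array on 3 or more arrays, since the negative control spots of the methods could not be identified. "Above background" means this. The brightest tested probe stood for a gene. The contrast was fitted in limma 3.58.1 under R 4.3.3 (two-sided, Benjamini-Hochberg over all 12703 genes, threshold 0.05), without a block. Scripts were tested on simulated data. The number of arrays limits the precision. Members, lists and tests were chosen with earlier results of these data known. Array values are given for EIF5, for the factor with the largest absolute difference in each role, and for factors whose groups did not overlap and differed by at least 0.3. Of each related list the 2 tested genes with the largest absolute difference are named. EIF5B, the second probes, the marker values, and the array values of EIF3M and DENR were added after their values were seen. Same-numbered arrays did not deviate together (r of 0.05, -0.02 and -0.28 over all tested genes), so the numbers were not taken as pairs. Protein sequences were not used here.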

Additional observations from a re-analysis of the deposited data

How the results depend on the processing

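The log2 difference of EIF5 stayed between 0.78 and 0.93 under all 18 alternatives, and its adjusted p ran from 0.00329 to 0.362, so its side of the threshold depended on the setting. EIF5 was the 1 initiation factor called (1 in place of 0) with the fit over all tested spots, with the mean over a gene's probes, with a filter at the 75th percentile, with an interquartile range above 0.5, without spots at the ceiling, with an intensity trend and robust prior, and with arrays centered on the median. All genes called numbered 31, and 61 with the fit over all spots, 74 with the interquartile range, 58 without spots at the ceiling, 78 with the trend and 55 after centering. They numbered 6 to 15 when 1 array was left out. With the replicate number as a block, 1 gene was called and EIF5 had an adjusted p of 0.362. The block also costs degrees of freedom, and same-numbered arrays did not deviate together, so this is no paired result. SGK1 lost its call there (2.72, adjusted p = 0.0830). The median of the factors was 0.83 with the interquartile range, where EIF5 alone was left, and otherwise between 0.03 and 0.13. The difference of PAIP1 turned to -0.0055 without restimulated replicate 2, the lowest of a leave-one-out range that reached 0.18. The other 356 values of named genes over the alternatives, cell type markers not included, kept their direction and their side of the threshold. Small differences moved with single arrays, EIF2AK3 to -0.009 without withdrawn replicate 1 and PABPC4 to -0.003 without withdrawn replicate 3. The filters and probe means change which genes enter, and the cause of the other shifts was not tested.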
